A study of Mus musculus with 24 samples.

Results

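Th1 cells were compared 4 h after restimulation through the T cell receptor with the same kind of cells left resting, in the absence of BET inhibitor. The comparison took 12 of the series' 24 arrays, chosen by their labels alone: 6 activated and 6 resting arrays, each set made of 3 arrays with DMSO and 3 with Control-768, and all 18193 genes with a named probe set. The other 12 arrays came from cells grown in I-BET-762, an inhibitor of the BET bromodomain proteins, at 0.25 or 0.5 µM. They were used here only to ask whether the response to restimulation differed in those cells.

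The cells of all groups were CD4+ T cells of 2D2 mice on a C57BL/6 background, which carry a transgenic T cell receptor for a myelin antigen. They were primed under Th1 conditions on antibodies to CD3 and CD28 with the compound or solvent in the culture, taken off the plates after 48 h and expanded for 2 days. Resting cells were harvested at that point, and activated cells were put back on plate-bound antibodies for 4 h. Resting therefore means previously activated and expanded, not naive. All cells share 1 transgenic receptor, the stimulus was an antibody and not the receptor's antigen, and there was 1 time after restimulation. DMSO is the solvent, and Control-768 (68A in the sample titles) is the control compound of the study; its concentration, and whether compounds were present during the 4 h, are not stated in the labels. Nor do they say whether the replicates, called biological by the submitters, came from separate or pooled animals.

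Engagement of the T cell receptor and CD28 sets off calcium, Ras and protein kinase C signals, which act on the NFAT, AP-1 and NF-kB transcription factors. Effector T cells keep their cytokine genes in an accessible state after priming and transcribe them within hours of a second contact, while genes that hold resting lymphocytes in quiescence, many of them driven by FOXO factors, are shut off. MYC and mTOR activity then raise ribosome production and metabolism ahead of division. At the same time the cells make negative regulators of the same pathways, such as IkB proteins, phosphatases and inhibitory receptors.

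Values are intensities on the authors' linear scale, and differences are log2(intensity + 16), activated minus resting, ± the standard error of the limma fit over 6 arrays in each state. Ranges give the lowest and highest of the 6 arrays. Adjusted p-values are from limma with the Benjamini-Hochberg method over all 18193 genes, and a gene is said to have risen or fallen where this value was under 0.05. The added 16 compresses the changes of dim genes, and 28.8% to 30.8% of the probe sets of an array lay under 16.

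Array medians lay between 38 and 42.8. The first principal component of the 12 arrays held 58.6% of the variance and separated the states, and the second (14.7%) set the arrays numbered 3 apart from those numbered 1 and 2 in both states. Correlations between arrays of 1 group were 0.983 to 0.994, and between states 0.957 to 0.979. Arrays of 1 state and number, 1 with DMSO and 1 with Control-768, deviated from their group means together (r from 0.27 to 0.70 over the 6 such pairs, across genes). Whether such a pair shares a culture is not said in the labels. Counts are also given from a fit added after the data were seen, in which each such pair was averaged, 3 values against 3 (the averaged fit). The standard errors, intervals and p-values of the main fit treat the 6 arrays of a state as separate, so they may be too small. In the averaged fit the adjusted p was 0.000712 for Il2 and 0.000712 for Ifng, larger than in the main fit. All 10 measured CD4 T cell markers had state means above 100, and their summed intensity was 41995 to 43114 in resting and 41132 to 43579.5 in activated arrays. None of the measured markers of B cells (7), NK cells (3), erythroid cells (3) or stromal cells (5) reached 100. Of 8 myeloid markers Csf1r did so, of 2 CD8 markers Cd8b1, and of 8 markers of dendritic cells and MHC class II H2-Ab1, H2-Eb1 and Cd74, whose list summed to 1566 to 2639 in resting and 1182 to 1904 in activated arrays. The part of such cells in the results was not tested, and in bulk RNA fewer cells of a type and less RNA per cell cannot be told apart.

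Restimulation changed 6442 of 18193 genes (35.4%), of which 2814 rose (15.5%) and 3628 fell (19.9%). The averaged fit called 3903 genes, 3885 of them among the 6442. These shares of all genes, and for the averaged fit 3903 of 18193, are the background of every list count below. Large changes were mostly rises: 95 genes (0.522%) rose and 42 (0.231%) fell by at least 4-fold, and 15 genes (0.0824%) rose and 0 fell by at least 16-fold. At least 2-fold changes were close in number, 580 rises (3.19%) and 614 falls (3.37%) among 1194 genes (6.56%). The median over all genes was -0.03. Among genes past the threshold, 2144 (11.8%) had all 6 activated arrays above all 6 resting arrays and 2463 (13.5%) had all 6 below. The median 95% confidence interval of a difference reached 0.26 to either side.

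**Figure D1:**
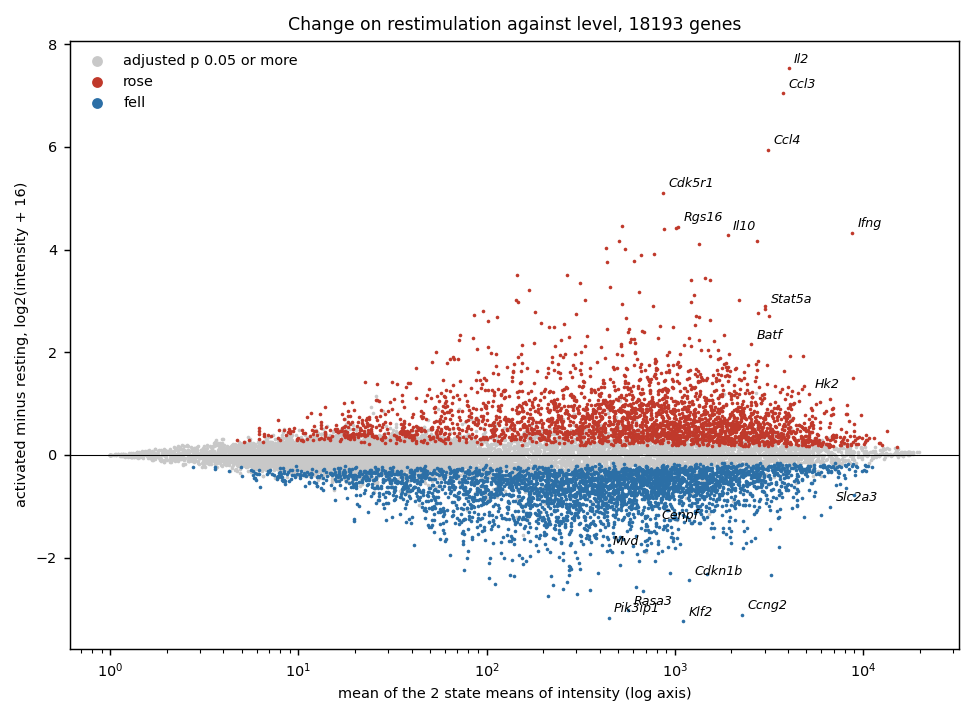
Each point is a gene; the horizontal axis is the mean of the resting and activated mean intensities (log axis) and the vertical axis is the difference activated minus resting in log2(intensity + 16), coloured where the adjusted p was under 0.05. Rises reach 7.53 (Il2), whereas the largest fall is -3.24 (Klf2), and dim genes at the left show small differences only.

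The 10 largest rises with groups of arrays that did not overlap were those of Il2, Ccl3, Ccl4, Cdk5r1, Pdzk1ip1, Rgs16, Il24, Csf2, Ifng and Il10. Arrays that do not overlap were a condition of this choice and of that of the 10 largest falls. For these genes the lack of overlap is therefore no separate result. Secreted cytokines and chemokines made up 7 of them. Among the rest, Cdk5r1, an activator subunit of the kinase CDK5, went from a median of 22.5 (range 16.1 to 33.7) to a median of 1041 (range 611 to 3475), a difference of 5.11 ± 0.43. Rgs16 is a GTPase activator that damps chemokine receptor signals, and it went from a median of 65.1 (range 45.5 to 77.2) to a median of 1576 (range 698 to 3662), with a difference of 4.45 ± 0.36 (adjusted p = 1.96e-06). Both genes were dim on every resting array and far above that on every activated array. Pdzk1ip1, which encodes a small membrane protein, rose by 4.46 ± 0.18 (23.6 to 35.8 resting, 633 to 1323 activated).

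Cytokine genes were among those with the largest responses. Of 25 measured, 15 rose and 1 fell, with a median difference of 1.14 against -0.03 over all genes. The counts in the averaged fit were 12 and 1. Il2, the growth factor that activated T cells make for themselves and their neighbours, read a median of 18.2 (range 13.1 to 28.9) on the resting arrays and a median of 5995 (range 2489.7 to 15270.1) on the activated arrays. Every resting array was dim and every activated array bright, and Il2 had the largest rise of any gene, 7.53 ± 0.39 (adjusted p = 1.29e-07). Ifng, the defining cytokine of Th1 cells and an activator of macrophages, read a median of 702 (range 523 to 1470.5) in resting cells and a median of 16565 (range 15469 to 17956) in activated cells. The activated arrays lay close together, and the resting arrays already held a clear signal. Its difference was 4.33 ± 0.22 (adjusted p = 1.04e-07), and the activated values lay near the top of the array's range, where changes may be compressed.

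Il2 is shown because it had the largest rise in the data. The 250 bases before its transcription start (chr3:37125955-37126204, minus strand, RefSeq, GRCm38.p6) are printed 5′ to 3′ in the direction of transcription, with capitals on the matches to the NFAT core letters GGAAA on either strand (TTTCC on the other).
Il2: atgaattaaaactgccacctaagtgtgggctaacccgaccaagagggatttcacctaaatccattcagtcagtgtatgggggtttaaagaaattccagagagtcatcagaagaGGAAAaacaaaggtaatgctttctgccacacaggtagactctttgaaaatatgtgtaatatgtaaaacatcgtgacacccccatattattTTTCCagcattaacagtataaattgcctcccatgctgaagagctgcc
There were 2 matches, the nearest 47 bases before the start (position -47), and no match to the AP-1 letters TGANTCA in the 300 bases searched, from 250 before to 50 after the start. GGAAA is a short motif: it was found in 59.2% of the 14452 promoters of measured genes, in 17 of 20 (85%) of cytokine genes with a promoter in the table, and in 45 of 68 (66.2%) of genes that rose at least 4-fold. Genes that fell at least 4-fold had it in 22 of 33 promoters (66.7%). Among genes that rose or fell at least 2-fold the shares were 59.1% and 58.9%. TGANTCA, which was searched in the same windows, was found in 6.33% of all promoters and 5 of 20 (25%) of the cytokine genes. Of genes that rose at least 4-fold 8 of 68 (11.8%) had TGANTCA, and of those that fell at least 4-fold 2 of 33 (6.06%). Its shares among genes that rose or fell at least 2-fold were 6% and 3.44%. A match is a description of letters and not a binding site.

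The other Th1 and inflammatory cytokines rose as well. Tnf, an activator of endothelium and phagocytes, went from a median of 239 (range 151 to 269) to a median of 2237 (range 1599 to 4008), a difference of 3.44 ± 0.24 (adjusted p = 8.22e-07). Csf2 encodes GM-CSF, which drives myeloid cells, and went from a median of 31.9 (range 7.54 to 47.1) to a median of 569 (range 249 to 4442); its difference was 4.40 ± 0.69 (adjusted p = 0.00031). Il3, a growth factor for many blood lineages that lies beside Csf2 in the genome, read a median of 154 (range 3.54 to 191) in resting and a median of 1225 (range 334 to 6079) in activated arrays, with a difference of 4.11 ± 0.84 (adjusted p = 0.00206). The activated arrays were above all resting arrays for each of these genes. The standard errors of Csf2 and Il3 were large, and both genes responded most on the arrays numbered 3, where the resting values were lowest and the activated values highest. Lta, which encodes lymphotoxin alpha, was already high at rest: 2064 to 5159 resting and 4822 to 8792 activated, with overlapping arrays. Its difference of 0.88 ± 0.27 passed the threshold (adjusted p = 0.0235), but not in the averaged fit (0.131), in a fit of all 24 arrays (0.126), nor without activated DMSO array 1 (0.0561), activated Control-768 array 1 (0.0529) or activated Control-768 array 2 (0.0513).

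Cytokines outside the Th1 set rose too. Il10, which restrains antigen-presenting cells and is also made by Th1 cells, went from a median of 122 (range 77.1 to 196) to a median of 1840.2 (range 1177 to 8068), a difference of 4.28 ± 0.47 (adjusted p = 2.15e-05). Il24, a relative of Il10, rose by 4.42 ± 0.26 (33.7 to 109 resting, 1472 to 2464 activated). Il21, a cytokine of follicular helper and Th17 cells that acts on B cells, went from a median of 377 (range 299.9 to 655) to a median of 2828 (range 1427 to 3940.2), a difference of 2.63 ± 0.25. The 2 states did not overlap in Il21, nor in Il10 and Il24, where this was a condition of their place among the 10 largest rises. Il17a stayed dim, at 1.96 to 40.6 resting and 25.8 to 167 activated, and rose by 1.80 ± 0.39 (adjusted p = 0.00287); without the arrays numbered 3 the difference was 1.46 and the adjusted p 0.0592. Il13, a type 2 cytokine named after its values were seen, went from a range of 10.3 to 18.4 to a range of 116 to 1314 (3.51 ± 0.57), whereas Il4 (0.90 ± 0.43, adjusted p = 0.134) and Il5 (0.15 ± 0.20, adjusted p = 0.605) did not pass the test. The only cytokine gene that fell was Il16, which encodes a chemoattractant for CD4+ cells kept as a precursor in resting lymphocytes: a median of 1403 (range 1195 to 1574) resting and a median of 839 (range 477 to 1065) activated, a difference of -0.90 ± 0.20 (adjusted p = 0.003).

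**Figure D2:**
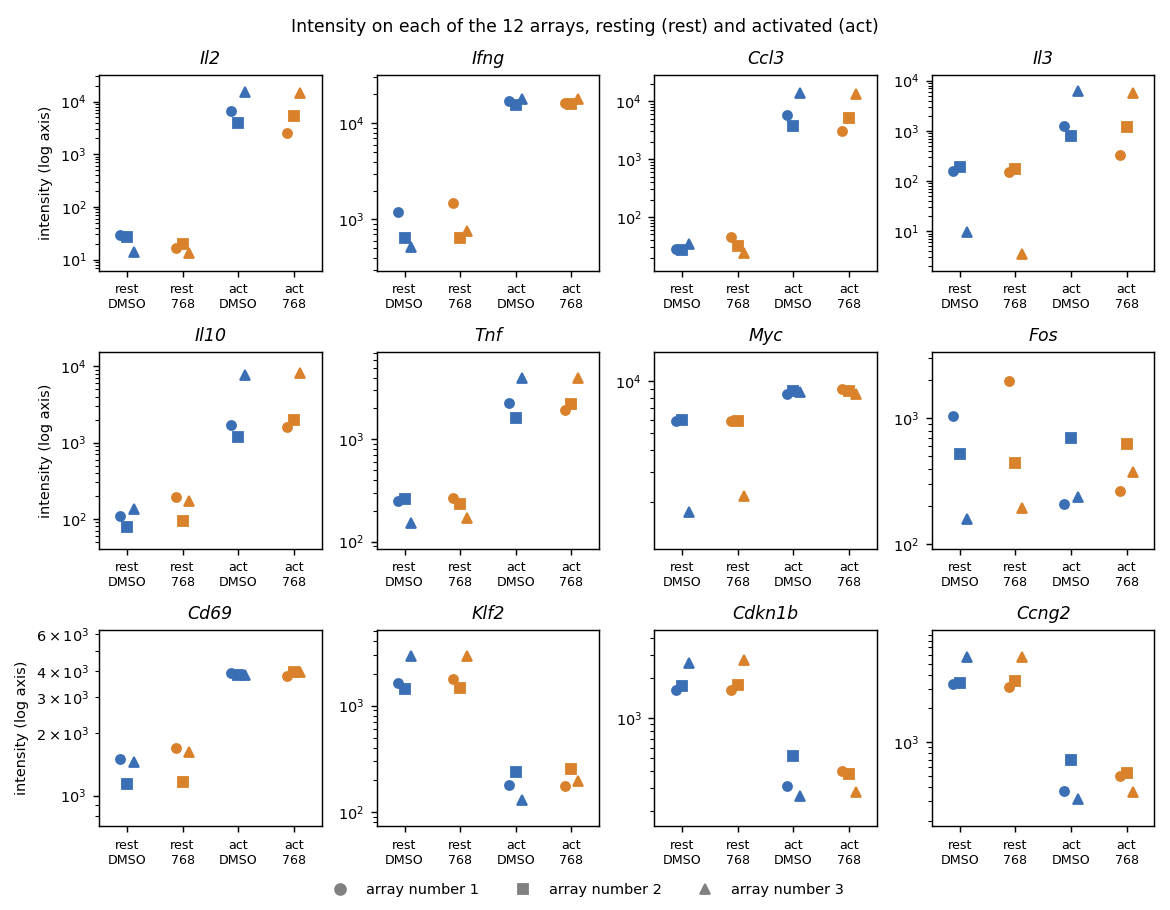
Intensity (log axes, with a range of its own in each panel) of 12 genes on each of the 12 arrays, by state and compound, with blue for DMSO, orange for Control-768 and symbols for the array number. Il2, Ccl3 and Ifng separate the states on every array, Il3 and Myc are lowest on the resting arrays numbered 3, Fos overlaps between states, and Klf2, Cdkn1b and Ccng2 are lower on every activated array.

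Chemokine genes split into a few with very large rises and a majority with none: 7 of 19 rose and 0 fell, with a median of 0.21. The called share of 36.8% was near the 35.4% of all genes. Ccl3 and Ccl4 encode chemokines that draw in T cells and macrophages. Ccl3 read a median of 29.97 (range 24.3 to 45.8) in resting and a median of 5527 (range 3025 to 13957) in activated arrays, and Ccl4 a median of 71 (range 41.4 to 100.2) and a median of 4232 (range 2468 to 11862). Both were dim on every resting array, and the differences were 7.05 ± 0.36 and 5.94 ± 0.39 (adjusted p = 1.04e-07 and 5.81e-07). Cxcl10, a ligand of CXCR3 that Th1 cells themselves carry the receptor for, went from a median of 21.4 (range 6.78 to 185) to a median of 813 (range 595 to 951), a difference of 4.03 ± 0.45. Its response was smallest on the arrays numbered 3 (4.59, 5.11 and 2.39 for numbers 1, 2 and 3), where resting cells already had the most. Cxcl2 rose by 0.64 ± 0.11 but stayed dim (19.2 to 37.1 activated). Ccl1 and Ccl5, named after their values were seen, rose by 4.16 ± 0.73 and 1.94 ± 0.32.

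Genes of the TNF superfamily, surface ligands by which T cells act on dendritic cells, B cells and each other, rose as a group: 8 of 10 rose and 0 fell, with a median of 1.21 (6 in the averaged fit). Tnfsf11, which encodes RANKL, went from a median of 315 (range 119.8 to 360.0) to a median of 4214 (range 2681 to 8796), a difference of 4.17 ± 0.36 (adjusted p = 3.38e-06). Cd70, the ligand of CD27, went from a median of 31.9 (range 23.9 to 37.3) to a median of 495 (range 259.9 to 1982), a difference of 3.76 ± 0.45. Tnfsf8, the ligand of CD30, rose by 2.33 ± 0.24 and Tnfsf4, the ligand of OX40, by 0.70 ± 0.11. The arrays of the 2 states did not overlap for any of the 4. Tnfsf13b and Fasl did not pass the test.

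Their receptors moved in both directions, with 7 of 16 risen and 2 fallen. Costimulatory receptors were among those that rose. Tnfrsf25, the receptor DR3, went from a range of 279 to 365 to a range of 825 to 1685 (1.88 ± 0.17), Tnfrsf9 (4-1BB) rose by 1.64 ± 0.23 and Tnfrsf4 (OX40) by 0.92 ± 0.13. Tnfrsf1a, a death domain receptor for TNF, fell by 0.80 ± 0.06 (614 to 670.3 resting, 331 to 407 activated), and Cd27, the receptor of CD70, fell by 0.90 ± 0.20 (434 to 535 resting, 148 to 396 activated). Tnfrsf1a did not overlap between the states. Cd27 did not either, but missed the threshold in the averaged fit (adjusted p = 0.0518).

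Among the transcription factors that T cell receptor signals induce, 14 of 26 EGR, NR4A and other early genes rose and 2 fell, with a median of 0.58; the averaged fit called 6 and 1. Nr4a3, an orphan nuclear receptor induced in proportion to the signal, went from a median of 51 (range 47.7 to 72.8) to a median of 739 (range 427 to 2367), a difference of 3.78 ± 0.38 (adjusted p = 9.23e-06). Egr2, a zinc finger factor that limits T cell activation, went from a median of 234 (range 124 to 379.5) to a median of 1871 (range 919 to 3960.4), a difference of 3.11 ± 0.36 (adjusted p = 3.03e-05). Irf8 (1.93 ± 0.10, 1311 to 1963 resting, 6242 to 6703 activated) and Ier5 (1.14 ± 0.09) had small spreads. All 4 were higher on every activated array. The relatives of these genes that peak earliest after a stimulus did not pass the test at 4 h: Nr4a1 gave 0.58 ± 0.23 (adjusted p = 0.0692), and Egr1, named after its values were seen, 1.19 ± 0.63 (adjusted p = 0.173). Nr4a1 passed in 7 alternatives, among them the replicate block (0.0184), array weights (0.00858) and the fit without the arrays numbered 3 (0.0405). Nfil3, a basic leucine zipper factor, fell from a median of 3456 (range 2974 to 4297) to a median of 1246 (range 473 to 2063) (-1.72 ± 0.32), and Tox fell by 0.99 ± 0.24, the latter not past the threshold in the averaged fit (adjusted p = 0.0682).

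AP-1 genes rose in 9 of 15 cases and fell in 0, with a median of 0.39, where of all genes 15.5% rose. The averaged fit called 6 rises and 0 falls. The largest changes were those of Fosl1 and Batf. Batf, which pairs with JUN and IRF4 at effector genes, read a median of 896 (range 876 to 978) in resting and a median of 4391 (range 3095 to 5254) in activated arrays and rose by 2.16 ± 0.12 (adjusted p = 2.31e-07). Fosl1, a FOS relative, was dim in resting cells (11.8 to 21) and rose to 113 to 339, a difference of 2.68 ± 0.24. Both were higher on every activated array. Jun itself rose by 0.80 ± 0.16 with overlapping arrays (617 to 978 and 965 to 1548), Junb by 0.81 ± 0.13, and Bach2, a repressor that competes at AP-1 sites, by 0.86 ± 0.14. Fos, an immediate early gene, did not pass the test: it read a median of 482 (range 158 to 1960.0) on resting and a median of 319 (range 209 to 694) on activated arrays, a difference of -0.45 ± 0.56 (adjusted p = 0.597). Its highest values were on the resting arrays numbered 1.

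The NF-kB pathway had 18 of 26 genes risen and 2 fallen, with a median of 1.03, and the averaged fit gave 17 and 1. Subunits, inhibitors and feedback genes all took part. Nfkb2, the p100 subunit, went from a median of 294 (range 193 to 382) to a median of 1575 (range 1362 to 2048), a difference of 2.49 ± 0.16 (adjusted p = 5.47e-07). Tnip1, a partner of the deubiquitinase A20 that dampens the pathway, rose by 1.48 ± 0.07 (1056 to 1227 resting, 2869 to 3516 activated), and Birc3, a ubiquitin ligase of the receptor complexes, by 1.16 ± 0.08. Nfkbia, the inhibitor IkB alpha, was high at rest and rose by 0.79 ± 0.16 (5719.9 to 10335 resting, 11586 to 13189 activated, adjusted p = 0.00179). Every activated array was above every resting array for these 4 genes. The inhibitors Nfkbid (3.41 ± 0.27) and Nfkbiz (3.01 ± 0.30) and the subunit Rel (2.67 ± 0.38), named after their values were seen, had the largest rises of the list. The genes that fell encode upstream kinase components: Ikbkg, the scaffold NEMO, fell by 0.95 ± 0.06 (357 to 394 resting, 171 to 198 activated, adjusted p = 4.88e-07), and Map3k14, the kinase NIK, fell by 0.55 ± 0.18 (adjusted p = 0.0283). Over the alternative fits the difference of Ikbkg ran from -1.01 to -0.39. The fall of Map3k14 was not past the threshold in the averaged fit (0.14), after quantile normalization (0.195), with state and number as a random block (0.0528), nor without activated DMSO array 1 (0.0588), resting Control-768 array 3 (0.0589) or activated Control-768 array 3 (0.0621).

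Of 23 genes of the NFAT and calcium pathway, 3 rose and 9 fell, with a median of -0.15 (averaged fit: 2 and 7). Stim1, the calcium sensor of the endoplasmic reticulum, fell from a median of 493 (range 400.3 to 569) to a median of 269 (range 219.9 to 292) (-0.84 ± 0.11). Orai2, a calcium channel subunit, fell by 1.16 ± 0.13, and Ppp3cc, a catalytic subunit of calcineurin, fell by 1.03 ± 0.08 (1222 to 1381 resting, 536 to 702 activated). Against this, Orai1, the main pore subunit of the same channel, rose by 0.58 ± 0.08 (560.3 to 705 resting, 884 to 1148 activated). Nfat5, the osmotic stress member of the family, rose by 1.46 ± 0.09 (adjusted p = 4.44e-07). None of these 5 genes overlapped between the states.

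Genes of the receptor-proximal machinery split, with 7 of 29 risen and 8 fallen (3 and 5 in the averaged fit). Plcg1, the phospholipase that produces the calcium-releasing messenger, fell from a median of 1385 (range 1323 to 1451) to a median of 526 (range 492 to 543), a difference of -1.40 ± 0.06 (adjusted p = 6.32e-08). Txk, a Tec family kinase, fell from a range of 98.7 to 207 to a range of 10.2 to 32.4 (-2.01 ± 0.22), and the adaptor Skap1 fell by 0.59 ± 0.07. The adaptor Lcp2 (SLP-76) rose by 0.78 ± 0.11 (3072 to 3896 resting, 5403 to 7766 activated) and the scavenger-type surface receptor Cd6 by 0.90 ± 0.09. For these 5 genes the arrays of the states did not overlap. Over the alternative fits the difference of Plcg1 ran from -1.43 to -0.38. Its highest adjusted p was 0.00588, for the mean of all probe sets.

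Attenuators of receptor signalling fell more often than they rose, 14 against 6 of 28, with a median of -0.42 (averaged fit: 11 and 2). Rasa3, a GTPase activator that switches off Ras and Rap, had the largest fall of this list: a median of 833 (range 727 to 1501) at rest and a median of 114 (range 73 to 130.1) after restimulation, a difference of -3.03 ± 0.21 (adjusted p = 8.32e-07). Sla2, a SRC-like adaptor that promotes receptor degradation, fell from a median of 395 (range 360.3 to 429) to a median of 86.1 (range 71.5 to 110.0) (-1.98 ± 0.08), and the docking protein gene Dok2 fell by 0.85 ± 0.10. No array of one state reached the other for these 3. Sh2d1a, the adaptor SAP, rose by 0.81 ± 0.07 and Cblb, a ubiquitin ligase that sets the CD28 requirement, by 0.67 ± 0.11. Of the 14 DUSP genes, phosphatases of MAP kinases, 7 rose and 5 fell. Dusp4 went from a range of 165 to 258 to a range of 771 to 2879.7 (2.51 ± 0.33) and Dusp2 rose by 1.75 ± 0.32, both ERK-directed nuclear enzymes, whereas Dusp10, directed at JNK and p38, fell by 1.02 ± 0.12. Dusp12 rose by 0.63 ± 0.10 and Dusp7 fell by 0.32 ± 0.07, the latter with other probe sets at -0.43 and 0.21. Dusp7 missed the threshold in the mean of all probe sets (-0.18, adjusted p = 0.172) and in the averaged fit (0.0504). In the averaged fit 5 rose and 1 fell.

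Cytokine receptor genes rose in 8 and fell in 6 of 27 cases (5 and 6 in the averaged fit). Receptors for IL-2 and IL-18 were among those higher, and receptors for interferons and IL-17 among those lower. Il2ra, the high-affinity IL-2 receptor chain, went from a median of 3494 (range 1609.6 to 3828) to a median of 5989.5 (range 4609 to 6351), a difference of 1.01 ± 0.24 (adjusted p = 0.00618, and 0.069 in the averaged fit). Il18r1, which lets Th1 cells respond to IL-18, rose by 0.78 ± 0.10 (2522 to 3261 resting, 4539.8 to 6033 activated). Ifngr1, the receptor chain that binds interferon gamma, fell from a median of 3572 (range 3187 to 4827) to a median of 1190.3 (range 869 to 1629.8) (-1.68 ± 0.18, adjusted p = 1.37e-05). Every activated array was below every resting array for Ifngr1, as for Il17ra (-1.21 ± 0.09) and the type I interferon receptor chain Ifnar2 (-0.94 ± 0.10). Other probe sets of Ifnar2 gave -0.11 and -0.02. Il7r, the receptor for the survival factor IL-7, overlapped between the states (2519 to 4783 and 1518 to 3983) and did not pass the test (-0.43 ± 0.26, adjusted p = 0.249), though it did with the replicate block (0.00216) and without the arrays numbered 3 (0.0237).

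Downstream of these receptors, 11 of 22 JAK, STAT, SOCS and PIM genes rose and 2 fell, with a median of 0.38 (7 and 1 in the averaged fit). Stat5a, the main transducer of IL-2, went from a median of 713 (range 622 to 806) to a median of 5327 (range 4033 to 6803), a difference of 2.85 ± 0.13 (adjusted p = 6.4e-08). The response was of like size under each array number (2.89, 2.63 and 3.02). Its close relative Stat5b rose by 0.63 ± 0.09, the kinase Jak2 by 1.76 ± 0.16 and the survival kinase Pim3 by 1.79 ± 0.13. Stat4, the transducer of IL-12 in Th1 differentiation, fell by 0.69 ± 0.11 (1389 to 1883 resting, 794 to 1166 activated). Stat2 gave -0.59 ± 0.21 with an adjusted p of 0.0444 and overlapping arrays, and lost the call in most alternatives, with an adjusted p of 0.169 in the averaged fit.

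Inhibitory receptors and their ligands rose in 6 of 12 cases, with 1 fall (5 and 1 in the averaged fit). Cd274 (PD-L1) went from a median of 307 (range 277 to 403) to a median of 937 (range 751 to 1461), a difference of 1.65 ± 0.17 (adjusted p = 1.03e-05), and Pdcd1lg2 (PD-L2) rose by 2.10 ± 0.30. Cd200 rose by 1.05 ± 0.12. The receptors Havcr2 (TIM-3, 2.56 ± 0.50) and Pdcd1 (PD-1, 1.81 ± 0.31), named after their values were seen, also rose. Lair1, an inhibitory receptor for collagen, fell by 0.89 ± 0.12 (112 to 143 resting, 40.1 to 79.97 activated). Ctla4 did not pass the test (0.10 ± 0.08).

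Of 14 Th1 lineage genes, 5 rose and 1 fell, a called share of 42.9% against 35.4% of all genes. Tbx21 encodes T-bet, the master factor of Th1 cells, and went from a median of 1070.3 (range 1039 to 1321) to a median of 3559 (range 2889 to 3969), a difference of 1.62 ± 0.10 (adjusted p = 2.72e-07). Eomes, its relative in cytotoxic cells, rose by 2.14 ± 0.19 from a dim level (33 to 56.1 resting, 171 to 376 activated). The activated arrays lay above the resting ones in both. The Th17 and follicular helper list had 7 of 12 risen and 0 fallen, with a median of 0.70 (4 in the averaged fit); its members include Batf and Sh2d1a, given above, and the coactivator Pou2af1 (2.79 ± 0.57, 9.21 to 40.8 resting, 78.9 to 814 activated) and the ligand-activated factor Ahr (1.45 ± 0.32). Of 9 Th2 genes, Icos (0.98 ± 0.19) and the chemokine receptor Ccr4 (1.25 ± 0.26) rose and Rad50, the DNA repair gene that harbours the control region of the Th2 cytokines, fell (-0.77 ± 0.08). The called share of the Th2 list, 33.3%, was near the 35.4% of all genes. Gata3 did not pass the test (-0.72 ± 0.39, adjusted p = 0.186).

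Regulatory T cell genes rose in 4 and fell in 3 of 13 cases, a called share of 53.8% against 35.4% of all genes. In the averaged fit, which called 3903 of all 18193 genes, 1 rose and 1 fell. Foxp3 itself was dim in both states (22.7 to 47.9 and 19.6 to 29.9) with a difference of -0.20 ± 0.12 (adjusted p = 0.213). Nrp1, a coreceptor for semaphorins, rose by 1.51 ± 0.21. Nt5e, the ectoenzyme CD73 that produces adenosine, fell by 1.15 ± 0.22. Over the alternative fits its difference ran from -1.78 to -0.33. Ikzf4, the factor Eos, rose by 0.94 ± 0.22, and Izumo1r, a folate receptor of regulatory cells, fell by 0.40 ± 0.11; neither passed the threshold in the averaged fit. Of 20 cytotoxic genes 5 rose and 2 fell, a called share near the 35.4% of all genes, with a median of -0.01 (2 and 0 in the averaged fit). Gzmb, granzyme B, was high at rest, with a median of 10584 (range 9752 to 13374), and rose to a median of 15240.3 (range 14512 to 17224), a difference of 0.47 ± 0.10 (adjusted p = 0.00217). Klrc1, the inhibitory lectin receptor NKG2A, rose by 1.87 ± 0.19 but stayed dim (67.2 to 160.1). Gzmc rose by 1.47 ± 0.33 and Srgn, the proteoglycan of the granules, by 0.23 ± 0.06, whereas Lamp1 gave -0.29 ± 0.08 and Gzmk -1.07 ± 0.34; none of these 4 passed the threshold in the averaged fit.

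Of 25 receptors that set where T cells go 5 rose and 4 fell, a called share near the 35.4% of all genes (6 and 7 without the arrays numbered 3). Cd69, an early activation marker that pulls the sphingosine phosphate receptor S1PR1 off the surface, went from a median of 1472 (range 1134 to 1705) to a median of 3868 (range 3781 to 3948). The activated arrays were tightly grouped above the resting ones, and the difference was 1.45 ± 0.10 (adjusted p = 8.78e-07). Gpr183, a receptor for oxysterols that guides cells to follicle borders, rose by 1.58 ± 0.12, and the hyaluronan receptor Cd44 by 1.29 ± 0.12. S1pr4, another sphingosine phosphate receptor, fell from a range of 833 to 1316 to a range of 298 to 424 (-1.39 ± 0.14), and Selplg, the selectin ligand PSGL-1, fell by 0.57 ± 0.08. S1pr1, named after its values were seen, fell by 1.67 ± 0.35.

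Quiescence and FOXO genes held several of the largest falls. Of 31 measured, 18 fell and 7 rose, with a median of -0.59 (averaged fit: 15 and 2). Klf2, a Krüppel-like factor that maintains resting T cells and their homing receptors, read a median of 1708 (range 1433 to 2921) at rest and a median of 188 (range 129 to 252) after 4 h. Even the lowest resting array was far above the highest activated array, and the difference of -3.24 ± 0.22 (adjusted p = 5.94e-07) was the largest fall of any gene. Pik3ip1, an inhibitor of PI3 kinase, went from a median of 812 (range 684 to 982) to a median of 81.9 (range 45.1 to 119.9) (-3.17 ± 0.20). Sesn1, a sestrin that restrains mTORC1, fell by 1.30 ± 0.07 (752 to 923 resting, 305 to 347 activated). The list was not uniform. Slfn2, a schlafen gene needed for quiescence, rose from a median of 645 (range 578 to 888) to a median of 4375 (range 3801 to 6489), by 2.77 ± 0.16 (adjusted p = 2.54e-07), and Klf6 by 0.83 ± 0.11.

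Among 24 G1 cyclins, cyclin-dependent kinase genes and their inhibitors, 10 fell and 7 rose. Cdkn1b, the inhibitor p27, went from a median of 1766 (range 1637 to 2727) to a median of 347 (range 260.0 to 519.6) (-2.45 ± 0.19, adjusted p = 1.57e-06). Ccng2, an atypical cyclin of arrested cells and a FOXO target, went from a median of 3436 (range 3112 to 5736) to a median of 435 (range 310.4 to 702) (-3.11 ± 0.22), and Rb1, the retinoblastoma protein, fell by 0.94 ± 0.06. Ccne2, an activating cyclin of the G1 to S transition, rose by 1.15 ± 0.10 (978 to 1446 resting, 2546 to 2924 activated). For these 4 genes no activated array reached the resting range, for Ccng2 as a condition of its place among the 10 largest falls.

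Other large falls lay outside the lists. Itga7, an integrin subunit for laminin, went from a range of 457 to 656 to a range of 32.6 to 106 (-2.72 ± 0.24), and Ripor2, a RhoA inhibitor of T cells, from a range of 952 to 1355 to a range of 134 to 239 (-2.65 ± 0.15). Mettl7a1 fell by 2.74 ± 0.17, Nipal3 fell by 2.62 ± 0.11, the cytochrome P450 gene Cyp2s1 fell by 2.61 ± 0.13 and Itih5 fell by 2.58 ± 0.32. The other bright probe set of Mettl7a1 gave -1.58. In each of the 6 genes the states did not overlap. In the PI3K, AKT and mTOR list 8 of 24 fell and 4 rose (7 and 0 in the averaged fit). Pik3cg, a catalytic subunit of PI3 kinase, fell by 1.15 ± 0.17 and Eif4ebp1, a repressor of cap-dependent translation that mTOR inactivates, fell by 0.88 ± 0.11 (2587 to 3224 resting, 1319 to 2100.3 activated). Rheb, the GTPase that switches on mTORC1, rose by 0.30 ± 0.08 and Rictor, a subunit of mTORC2, by 0.39 ± 0.11; neither call held in the averaged fit.

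Myc, a driver of growth in activated T cells, was high in resting cells of arrays numbered 1 and 2 and low on those numbered 3. It read a median of 5914 (range 1754 to 5978) at rest and a median of 8741 (range 8413 to 9029.5) after restimulation, all activated arrays above all resting arrays. The difference was 1.08 ± 0.31 (adjusted p = 0.0171, 0.112 in the averaged fit and 0.0699 in a fit of all 24 arrays), made up of 0.56, 0.56 and 2.13 within numbers 1, 2 and 3. Of 12 genes of the MYC and MAX network 5 rose and 3 fell (2 and 2 in the averaged fit). Mxd4, a MAX partner that opposes MYC, fell by 1.38 ± 0.20 (443 to 554 resting, 95 to 258 activated), Mxd3 fell by 0.67 ± 0.08, and the MAX partner Mga rose by 0.67 ± 0.11. Mlxip, a glucose-sensing relative, rose by 0.41 ± 0.07.

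Ribosome biogenesis was the most uniform of the 41 lists in its share of members called: 48 of 50 genes rose and 0 fell, with a median of 0.89 and 19 rises of at least 2-fold. The averaged fit called 45. Utp20, a component of the small subunit processome, went from a median of 811 (range 699.5 to 930.3) to a median of 2367 (range 2096 to 2704) (1.56 ± 0.09, adjusted p = 2.19e-07). Nolc1, a nucleolar chaperone of snoRNP particles, rose by 1.24 ± 0.07 (2357 to 2693 resting, 5288 to 6626 activated), Wdr43 by 1.13 ± 0.07 and Rrp9, a protein of the U3 particle, by 1.57 ± 0.11. The arrays of the states did not overlap for any of the 4, and the response of Rrp9 was 1.58, 1.58 and 1.55 within numbers 1, 2 and 3. Npm1 and Nop10 were the 2 members that did not pass the test.

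The following 30-base stretches are shown for the E-box, the motif that MYC and MAX bind. They run 5′ to 3′ in the direction of transcription (RefSeq, GRCm38.p6), with the E-box CACGTG, which reads the same on both strands, in capitals: Utp20 at chr10:88826765-88826794 (minus strand), Wdr43 at chr17:71616220-71616249 (plus), Mybbp1a at chr11:72441347-72441376 (plus) and Nop2 at chr6:125131811-125131840 (plus).
Utp20: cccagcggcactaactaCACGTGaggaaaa
Wdr43: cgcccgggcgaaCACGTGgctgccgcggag
Mybbp1a: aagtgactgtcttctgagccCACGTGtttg
Nop2: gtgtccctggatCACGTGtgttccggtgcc
Within the 300-base windows, CACGTG was found in 11 of 43 promoters of the list (25.6%), against 9.02% of all 14452. Of the list, 11 of 11 genes with a match rose, with a median of 1.10, and 31 of 32 without one rose, with a median of 0.87; the difference was not tested. The members and the motif were chosen with the response of the list already known, so the share is given as a description.

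Translation genes rose in 18 of 32 cases and fell in 3, with a median of 0.23 (11 and 1 in the averaged fit). Eif6, which keeps the large ribosomal subunit from joining too early, rose by 0.92 ± 0.06 (2189 to 2503 resting, 4234 to 4628 activated), and Eif4e, the cap-binding protein, by 0.64 ± 0.07. The start codon factor Eif1a rose by 1.06 ± 0.11 and the synthetase scaffold Aimp2 by 0.85 ± 0.07. Eif4ebp2, a repressor of Eif4e, fell by 0.38 ± 0.10 (adjusted p = 0.0976 in the averaged fit). Of 25 cytosolic ribosomal protein genes 1 rose and 1 fell, with a median of 0.02. Both calls were weak: Rpl12 gave 1.09 ± 0.34 with overlapping arrays (adjusted p = 0.0237) and lost the call on leaving out any one of the 4 arrays numbered 1 or either resting array numbered 2 (0.0509 to 0.0564). Rps6 gave -0.18 ± 0.06 (adjusted p = 0.0394, and 0.221 in the averaged fit). Many of these genes are bright, and changes near the top of the array's range may be compressed.

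Of 22 genes for the supply of nucleotides and polyamines 13 rose and 3 fell, with a median of 0.30 (10 and 1 in the averaged fit). Srm, spermidine synthase, went from a median of 2749 (range 2556 to 2967) to a median of 6912 (range 6295 to 7621) (1.35 ± 0.07, adjusted p = 1.41e-07), and Ctps, CTP synthase, rose by 1.02 ± 0.08. Smox, spermine oxidase, rose by 0.99 ± 0.11. Prps2, an enzyme that makes the ribose phosphate donor of nucleotides, fell by 0.74 ± 0.06 (2269 to 2415 resting, 1313 to 1492 activated), and Paics, an enzyme of purine synthesis, fell by 0.24 ± 0.06 (adjusted p = 0.103 in the averaged fit). Chaperone genes rose in 14 of 29 cases and fell in 4 (8 and 3 in the averaged fit). Hspa5, the chaperone BiP of the endoplasmic reticulum, rose by 0.79 ± 0.08 (5117 to 6535 resting, 9493 to 11448 activated) and Hspd1, the mitochondrial HSP60, by 0.47 ± 0.06. Hspa4 rose by 0.45 ± 0.06 and Hyou1, a partner of BiP, by 0.72 ± 0.07. Without the probe sets marked _x_at or _s_at Hyou1 gave 0.28 (adjusted p = 0.126). Dnajb1, a heat shock cochaperone, fell by 0.50 ± 0.09 and the disulfide isomerase Pdia4 fell by 0.46 ± 0.08.

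Genes of mitosis fell. The G2/M list held 42 measured genes, of which 34 fell and none rose; its median was -0.62, and 7 fell at least 2-fold (32 called in the averaged fit). Cenpf, a kinetochore protein, went from a median of 1188 (range 942 to 1271) to a median of 446 (range 383 to 482) (-1.35 ± 0.09, adjusted p = 5.89e-07). Cdc25b, the phosphatase that starts mitosis, went from a median of 1259 (range 1201 to 1382) to a median of 492 (range 382 to 569) (-1.39 ± 0.09). Aurkb, a kinase of chromosome segregation, fell by 0.86 ± 0.06 (2568 to 2840.1 resting, 1395 to 1552 activated), and the spindle protein gene Nusap1 fell by 1.22 ± 0.10. Every activated array was below every resting array in these 4. The fall of the list was of like size within each array number, with medians of -0.67, -0.59 and -0.58 for numbers 1, 2 and 3.

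Promoter stretches of 4 members are shown for the CHR element, TTTGAA, through which the DREAM complex and B-MYB with FOXM1 act on late cell cycle genes. Each runs 5′ to 3′ in the direction of transcription (RefSeq, GRCm38.p6), with the match in capitals, read as TTCAAA where it lies on the other strand: Cenpf at chr1:189688067-189688096 (minus strand), Ccnb2 at chr9:70421533-70421562 (minus), Kif4 at chrX:100626072-100626101 (plus) and Ndc80 at chr17:71526811-71526840 (minus).
Cenpf: ggcggcgggcagTTTGAAtcgctcgtgctg
Ccnb2: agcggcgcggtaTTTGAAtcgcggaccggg
Kif4: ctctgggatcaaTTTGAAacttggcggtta
Ndc80: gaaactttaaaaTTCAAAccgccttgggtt
In the 300-base windows, TTTGAA on either strand was found in 28 of 36 G2/M promoters (77.8%), against 13.3% of all promoters and 12.1% of those of the S phase list. Among all genes that fell at least 2-fold it was found in 59 of 494 (11.9%), and at least 4-fold in 5 of 33 (15.2%). Of the G2/M genes with a match 22 of 28 fell, with a median of -0.57, and of those without one 7 of 8 fell, with a median of -0.55. The difference was not tested. These 4 genes were chosen after their values were seen. Ccnb2 (cyclin B2) fell by 0.86 ± 0.07, Kif4 fell by 0.85 ± 0.08 and Ndc80 fell by 0.79 ± 0.08.

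Of 39 DNA replication genes 20 fell and 3 rose, with a median of -0.19. With all 24 arrays in 1 fit 11 fell, in the averaged fit 14, and 6 rose without the arrays numbered 3. Pold1, the catalytic subunit of DNA polymerase delta, went from a median of 1582 (range 1459.8 to 1714) to a median of 778 (range 752 to 933) (-0.98 ± 0.07), and the primase subunit Prim2 fell by 0.96 ± 0.09, the clamp loader subunit Rfc2 fell by 0.68 ± 0.06 and the single-strand binding protein Rpa1 fell by 0.68 ± 0.07. None of the 4 overlapped between the states. Orc1, a subunit of the origin recognition complex, rose by 1.05 ± 0.14 (216 to 386 resting, 553 to 734 activated), and Tyms, thymidylate synthase, by 0.50 ± 0.11.

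Of 36 cholesterol and SREBP genes 25 fell and 5 rose, with a median of -0.54 (averaged fit: 20 and 1). Mvd, an enzyme of the mevalonate pathway, went from a median of 758 (range 459 to 817) to a median of 191 (range 107 to 253) (-1.86 ± 0.23, adjusted p = 4.62e-05). Stard4, a carrier of cholesterol in the cytosol, fell by 0.97 ± 0.12 (2156 to 2919 resting, 1073 to 1642 activated). Mylip, which degrades the LDL receptor and is induced by the sterol sensor LXR, fell by 0.84 ± 0.11. Scap, the escort of SREBP, rose by 0.57 ± 0.07 (1745 to 1993 resting, 2528 to 3187 activated). The states did not overlap for any of the 4. Fasn, fatty acid synthase, rose by 0.44 ± 0.11 (adjusted p = 0.00726), but not past the threshold in the averaged fit.

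Glycolysis genes fell in 13 of 19 cases and rose in 2, with a median of -0.55; in the averaged fit 9 fell. Hk2, the inducible hexokinase, was one of the 2 that rose, from a median of 3285 (range 2779 to 3351) to a median of 7152 (range 7004 to 7593) (1.19 ± 0.07, adjusted p = 2.72e-07), while the constitutive Hk1 fell by 0.78 ± 0.09 (3365 to 4152 resting, 2001 to 2619.9 activated). Slc2a3, the glucose transporter GLUT3, fell from a median of 8908 (range 8539 to 9499) to a median of 4415 (range 3820.3 to 5315) (-1.01 ± 0.09). The other rise was that of Slc16a1, the lactate transporter MCT1, by 0.62 ± 0.08. Arrays of the 2 states lay apart in all 4. Of 31 oxidative phosphorylation genes 9 fell and 0 rose, a called share of 29%, under the 35.4% of all genes. The median was -0.11 with no difference beyond -0.45, and the averaged fit called 2. Ndufb3, a subunit of complex I, fell by 0.39 ± 0.06 (3739 to 3933 resting, 2636 to 3126 activated), Sdha of complex II fell by 0.45 ± 0.07, Ndufv1 fell by 0.31 ± 0.06 and Ndufa9 fell by 0.19 ± 0.05. The mean of all probe sets of Sdha gave -0.03 (adjusted p = 0.768), and in the averaged fit Ndufv1 (0.0518) and Ndufa9 (0.164) missed the threshold.

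Amino acid supply and stress genes under ATF4 moved in both directions, with 10 of 28 risen and 4 fallen. The called share was 50% against 35.4% of all genes. In the averaged fit, which called 3903 of all 18193 genes, 4 rose and 3 fell. Shmt1, a serine hydroxymethyltransferase, rose by 1.39 ± 0.10 (769.9 to 929 resting, 1918 to 2886 activated), and the arginine and lysine transporter Slc7a1 by 0.92 ± 0.09. Bcat1, which degrades branched-chain amino acids, rose by 1.13 ± 0.11 on its brightest probe set, while another of its probe sets gave -0.13. Trib3, a stress-induced pseudokinase, went from a median of 1087 (range 867 to 1333) to a median of 293 (range 192 to 423) (-1.86 ± 0.18, adjusted p = 8.09e-06), and Ddit3, the factor CHOP, fell by 1.38 ± 0.21. Both were lower on every activated array.

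In the mRNA decay and microRNA list 10 of 22 rose and 5 fell (7 and 2 in the averaged fit). Zc3h12a, the endonuclease Regnase-1 that cuts cytokine mRNAs, went from a median of 113 (range 74 to 121) to a median of 884 (range 723 to 1193) (2.93 ± 0.15, adjusted p = 1.04e-07). Rc3h1 and Rc3h2, the roquins that act on many of the same mRNAs, rose by 1.46 ± 0.12 and 1.45 ± 0.11. All 3 were higher on every activated array. Cpeb4, a cytoplasmic polyadenylation factor, rose by 1.11 ± 0.09. Nanos1, an RNA-binding repressor, fell by 0.97 ± 0.11 and Tob1, an antiproliferative adaptor of the deadenylase, fell by 0.59 ± 0.10. The mean of all probe sets of Tob1 gave -0.08 (adjusted p = 0.658). Zfp36, the tristetraprolin gene whose product marks cytokine mRNAs for decay, was named after its values were seen and fell by 1.25 ± 0.30 (438 to 1448 resting, 216 to 471 activated).

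In the BCL2 family the main protectors of T cells moved in opposite directions. Bcl2l1, which encodes BCL-XL, went from a median of 1199 (range 1004 to 1432) to a median of 4284 (range 3532 to 4722) (1.77 ± 0.10, adjusted p = 2.64e-07), and Bcl2 from a median of 7013 (range 6219 to 7489) to a median of 4227 (range 3711 to 4726) (-0.73 ± 0.08). The states did not overlap in either. Of the other 4 probe sets of Bcl2, 2 gave falls of -0.71 and -1.03, and 2 dimmer ones gave 0.24 and 0.32. Cflar, the inhibitor FLIP of caspase 8, rose by 1.46 ± 0.18, and the death-promoting Bad fell by 0.40 ± 0.09. Over the list 4 of 18 rose and 5 fell, a called share of 50% against 35.4% of all genes. In the averaged fit, which called 3903 of all 18193 genes, 2 rose and 2 fell.

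Genes of the BET and P-TEFb elongation machinery, the target of the study's inhibitor, rose in 8 of 17 cases and fell in 0, with a median of 0.28 (7 in the averaged fit). Mllt1 and Aff4, subunits of the super elongation complex, rose by 0.99 ± 0.12 (178 to 307 resting, 489.5 to 551 activated) and 0.96 ± 0.13. Ccnt1, cyclin T1 of P-TEFb, rose by 0.53 ± 0.08, and Hexim1, which holds P-TEFb inactive, by 0.71 ± 0.11 (858 to 1362 resting, 1656 to 2136 activated). Activated arrays were above resting ones in each. Of the BET genes measured, named after their values were seen, Brd2 rose by 0.40 ± 0.08 and Brd3 did not pass the test (0.06 ± 0.10).

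Of 31 interferon-stimulated genes 2 rose and 9 fell, with a median of -0.02, where of all genes 15.5% rose and 19.9% fell (0 and 4 in the averaged fit, 5 and 9 without the arrays numbered 3). Genes of RNA sensing and type I interferon were among those that fell. Dhx58, the sensor LGP2, went from a median of 129.6 (range 106 to 168) to a median of 34.5 (range 20.5 to 44.5) (-1.64 ± 0.15, adjusted p = 5.97e-06), Ddx58, the sensor RIG-I, fell by 0.99 ± 0.13, and Ifit2 fell by 1.13 ± 0.09, while Xaf1, a proapoptotic interferon target, fell by 0.54 ± 0.09. The rises were those of Iigp1, an interferon gamma induced GTPase (1.27 ± 0.37, adjusted p = 0.0176), and of Mx1, which stayed dim (0.38 ± 0.11, 36 to 58). Iigp1 read a median of 418 (range 363 to 557) at rest and a median of 1523 (range 433 to 1771) after restimulation, and the arrays numbered 3 did not share its rise (2.02, 1.66 and 0.13 within numbers 1, 2 and 3). In the averaged fit the adjusted p was 0.111 for Iigp1 and 0.0903 for Mx1. Over the alternative fits the difference of Dhx58 ran from -2.04 to -0.48.

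Growth arrest genes of the p53 list split, with 7 of 24 risen and 8 fallen (7 and 4 in the averaged fit, 12 and 8 without the arrays numbered 3). Gadd45b, a stress gene also under NF-kB that promotes Ifng transcription, went from a median of 573 (range 494 to 2142) to a median of 5461 (range 4425 to 6436) (2.71 ± 0.35), and Gadd45g rose by 1.47 ± 0.20. Ddb2, a DNA damage sensor, fell from a median of 839 (range 795 to 917) to a median of 326 (range 307 to 360.4) (-1.31 ± 0.06, adjusted p = 6.32e-08). None of the 3 overlapped between the states. In the RGS and G protein list 7 of 18 rose and 5 fell (5 and 3 in the averaged fit): the proton sensor Gpr65 rose from a range of 406 to 572 to a range of 1848 to 2574 (2.24 ± 0.10) and the G protein subunit Gnaq by 1.43 ± 0.15, whereas Rgs10 and Rgs14, relatives of Rgs16, gave -1.21 ± 0.10 and -1.36 ± 0.15.

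**Figure D3:**
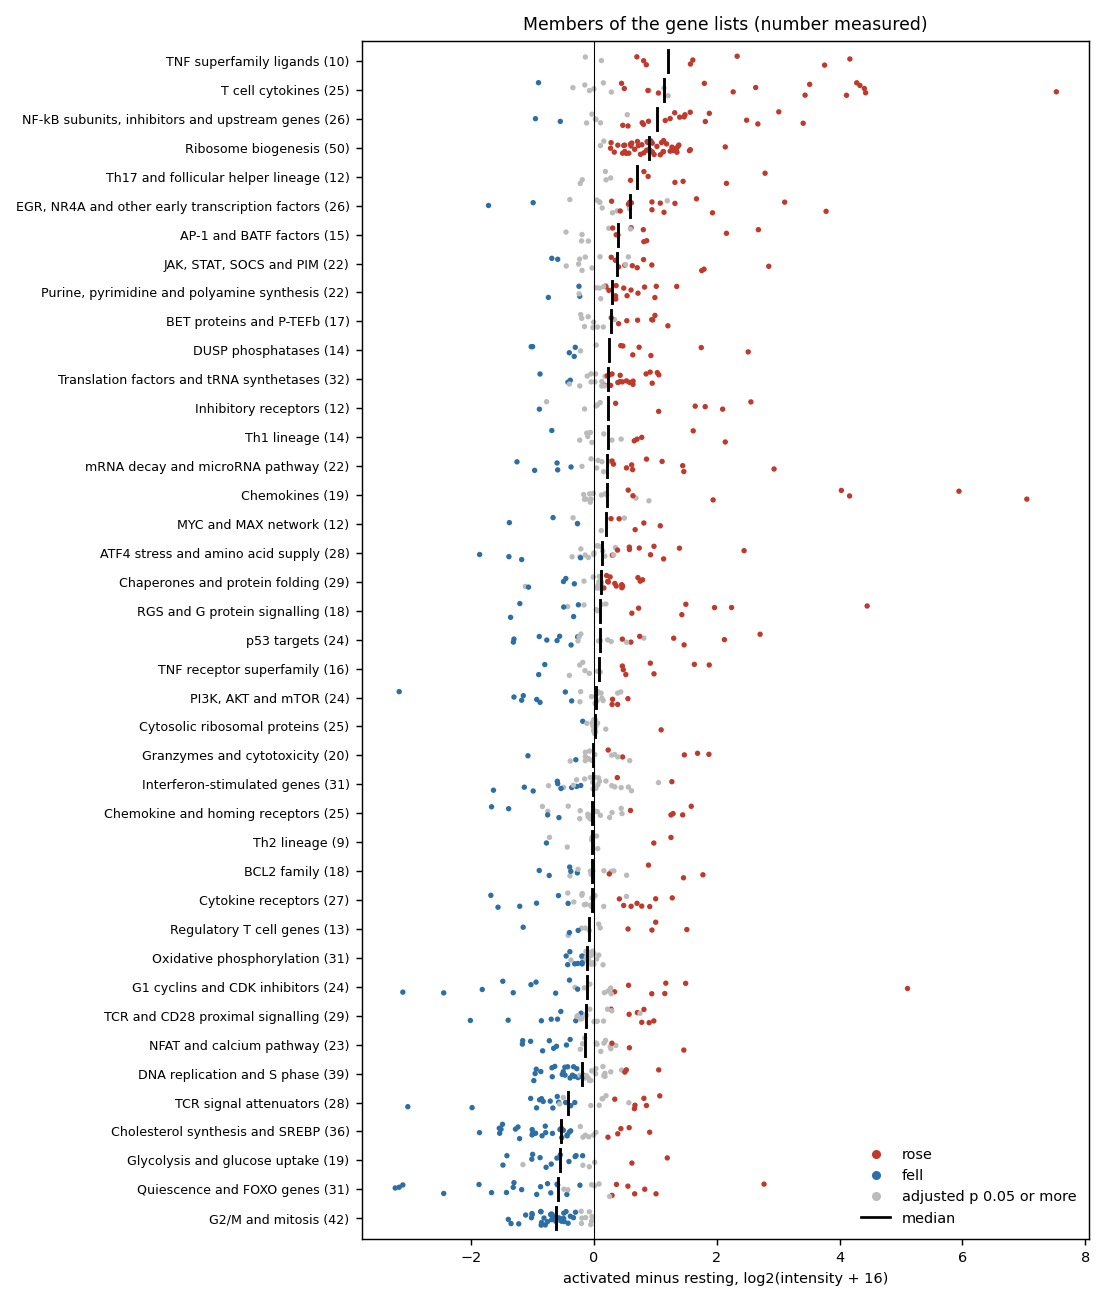
Each point is a measured member of a gene list, with the number of measured members in brackets; the horizontal axis is the difference activated minus resting in log2(intensity + 16), the black bar is the list's median, and lists are in the order of their medians. Medians run from -0.62 (G2/M and mitosis) to 1.21 (TNF superfamily ligands), and ribosome biogenesis is the list in which nearly all points are red while G2/M has no red point.

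The response was asked of each control on its own, to see whether it depended on the control compound. Under DMSO 4073 genes (22.4%) changed, 1753 of them up (9.64%) and 2320 down (12.8%). Under Control-768 3933 (21.6%) changed, 1711 up (9.4%) and 2222 down (12.2%). Both came from a single fit of the group means, in which 1506 genes rose under both controls and 1948 fell under both. The sets of 6 arrays behind the 2 responses share no array. They do share 1 estimate of the spread, and arrays of 1 state and number deviated together. The 2 responses had a correlation of 0.93 across genes, which share platform and probe sets and are not independent replicates. Only 3 genes were called in opposite directions, Brinp1, Myoz3 and Polq, and all were dim, at no more than 72.5 on any of the 12 arrays. Il2 gave 7.58 under DMSO and 7.48 under Control-768, Ifng 4.48 and 4.19, and Rnf24, named below, 2.08 and 1.86. The test of the difference between the 2 responses called 0 genes after adjustment with limma, and 420 (2.31%) at an unadjusted p under 0.05. The smallest unadjusted p-values were those of Slc23a4 and Nrg3, both dim, with differences of 0.88 ± 0.15 and -0.96 ± 0.17 and adjusted p of 1. With state and number as a fixed block, an alternative chosen after seeing the data, 802 genes stood at an unadjusted p under 0.05 and 0 were called. The median 95% interval of such a difference reached 0.53 to either side, so smaller differences could not be seen for most genes. The term for compound over both states also called 0 genes (464, or 2.55%, at an unadjusted p under 0.05). Under the fixed block the compound term called 0 genes in resting cells and 1 of 18193 (0.0055%) in activated cells. This was the dim gene Tcam1, named after its values were seen, with a geometric mean of 41.5 under DMSO and 10.1 under Control-768 (-1.14 ± 0.07 on the log2 scale, adjusted p = 0.0446).

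**Figure D4:**
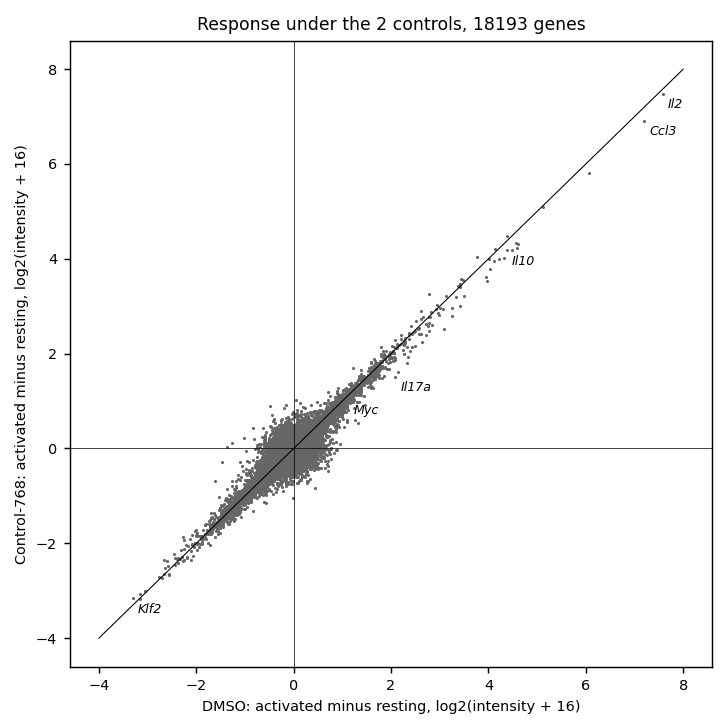
Each point is 1 of 18193 genes; the axes are the difference activated minus resting in log2(intensity + 16) under DMSO (horizontal) and under Control-768 (vertical), and the line marks equal values. Large rises and falls lie along the line (r = 0.93), and the scatter around 0 is that of genes with small differences.

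Within an array number the response could be read 3 times, each from 2 activated and 2 resting arrays. Whether same-numbered arrays of the 2 states belong together is not known, so the 3 values are a description. Many genes gave like values: Stat5a 2.89, 2.63 and 3.02, Batf 2.24, 1.83 and 2.41, Srm 1.37, 1.33 and 1.35 and Cenpf -1.52, -1.36 and -1.17 for numbers 1, 2 and 3. Others differed. Il3 gave 1.96, 2.33 and 8.05, and Csf2 2.72, 3.30 and 7.19. Without the arrays numbered 3 the differences were 2.14 for Il3 (adjusted p = 0.00266) and 3.01 for Csf2 (9.93e-05), and the pooled count was 6718. Fos gave -2.53, 0.44 and 0.73, the one fall coming from number 1. The median of the cytokine list was 0.67, 0.73 and 2.39, and that of the TNF superfamily ligands 0.75, 0.71 and 2.07. Ribosome biogenesis had medians of 0.88, 0.76 and 1.05. On the arrays numbered 3 the medians of the cytokine and TNF superfamily ligand lists were thus larger, while Cxcl10, Iigp1 and Gadd45b rose less there. The labels do not say whether the number stands for a culture, a day or a group of animals, and the difference between numbers was not tested.

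**Figure D5:**
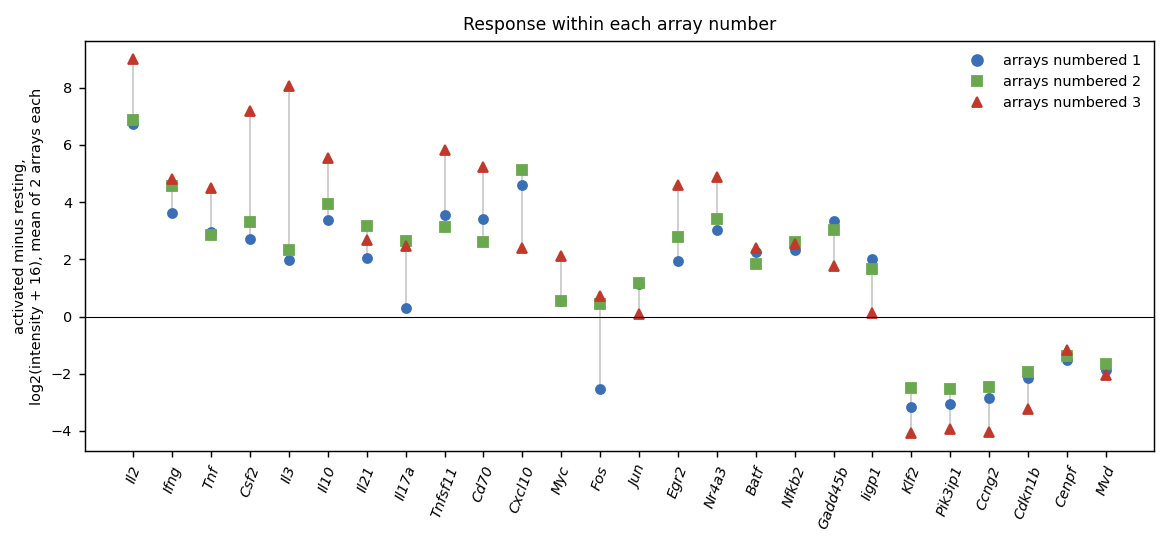
For each of 26 genes, the difference activated minus resting in log2(intensity + 16) within the arrays of 1 number, from the means of 2 activated and 2 resting arrays; colours and symbols mark the number. Il3 and Csf2 are farthest apart, with number 3 highest (8.05 and 7.19), Cxcl10 and Iigp1 have number 3 lowest (2.39 and 0.13), and the 3 values of Cenpf lie close together.

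The same response in cells grown in I-BET-762 was set against that of the controls by an interaction over all 24 arrays. After adjustment with limma 0 genes were called at 0.5 µM and 0 at 0.25 µM, with 846 and 473 genes at an unadjusted p under 0.05. The control arrays are shared by both comparisons. Without the arrays numbered 3, 4 genes were called at 0.5 µM: Ccl3, with a difference of -2.77 from the controls' response, Klrc1 with -1.94, Stra6 with -1.76 and Ifih1, an RNA sensor, with 1.36 (adjusted p = 0.0212, 0.0188, 0.0106 and 0.0212). With all arrays, the smallest p-values at 0.5 µM were those of Pcsk4 and Rnf24. Pcsk4, a proprotein convertase, fell by 1.27 ± 0.09 in the control cells and changed by 0.11 in the I-BET-762 cells, a difference of 1.38 ± 0.25 (adjusted p = 0.182). Rnf24, a ring finger gene, rose by 1.97 ± 0.15 in the control cells and gave 0.69 in the I-BET-762 cells, a difference of -1.28 ± 0.24 (adjusted p = 0.182). At 0.25 µM they were those of Tas1r1 and Mmp23, both with an adjusted p of 1. The response of Il2 was 7.77 at 0.5 µM, a difference of 0.24 ± 0.74 from the controls, and that of Ifng 3.51, a difference of -0.82 ± 0.50. Standard errors of this size leave moderate differences undetected, and a difference past no threshold does not show equal responses.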

How the data were processed

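RNA of mouse CD4+ T cells was measured on 24 Affymetrix arrays, and 12 of them entered the main comparison. The authors deposited 1 intensity, on a linear scale, for each of 45101 probe sets; their summary and normalization methods are not given in the sources used here. Amplification ran for 2 rounds, per the labels' protocols, which favours the 3′ ends of transcripts. The number of arrays limits the precision.

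Of the probe sets 34945 had a single gene symbol in the platform annotation, 932 several and 9160 none, and 64 were controls; 34741 were matched to a current gene table and 0 symbols changed. Each gene took its probe set with the highest mean, leaving 18193 genes; 9010 had more than 1 probe set. The named genes past the threshold had 233 further probe sets, of which 25 had the opposite sign. Among the 136 with a mean intensity of at least 100, 5 had the opposite sign. A gene that is not named by the annotation has no value here, Gapdh among them.

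Log2(intensity + 16) was fitted in limma 3.58.1 under R 4.3.3 with terms for compound and state (9 residual and 2.92 prior degrees of freedom). The responses under each control, their difference and the interactions with I-BET-762 came from fits of group means. All tests were two-sided with Benjamini-Hochberg adjustment over all genes at 0.05. The fits were also run on simulated data with independent noise on each array. Such data cannot show the effect of arrays that deviate together. No 2 arrays held identical values.

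Same-numbered arrays of different states were not taken as pairs: their deviations from the group means correlated by 0.0061 to 0.15, over 0.1 in 7 of 12 pairs. Arrays of different numbers had a median correlation of -0.046, over 0.1 in 4 of 36 pairs.

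The members and the 41 gene lists were chosen with earlier results of these data known. Named are the 10 largest rises and falls with arrays that do not overlap (placeholder symbols passed over), up to 4 members of each list with the smallest adjusted p and up to 2 that went against its majority, 22 genes whatever their values, and the leading genes of each interaction. Other genes are marked as named after their values were seen; so were members named because they missed the threshold, genes of opposite calls and those whose promoter stretches are printed. Promoters are RefSeq windows of 300 bases, matched by symbol for 14452 genes; 2661 genes had several starts, of which the first listed was used. Sequence on 1 chromosome was not printed.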

Additional observations from a re-analysis of the deposited data

How the results depend on the processing

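The count of 6442 genes ranged from 5899 to 6381 on leaving out 1 array, that under DMSO from 2931 to 4413 and that under Control-768 from 2772 to 4234. Averaging the DMSO and Control-768 arrays of a state and number lowered the pooled count to 3903 (1680 rose); with state and number as a random block (consensus correlation 0.52) it was 5143, all among the 6442. Both were added after the data were seen. Quantile normalization gave 6563, 46.7% of them rises against 43.7%. With array number as a replicate block the pooled count was 7281. Same-numbered arrays of different states deviated together only weakly (median r 0.105), and the main fit did not pair them. The interaction with 0.5 µM I-BET-762 called 2 genes under that replicate block, Pcsk4 and Stra6, and 4 without the arrays numbered 3, Ccl3, Ifih1, Klrc1 and Stra6, against 0; the cause was not tested.

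None of the 211 named genes changed sign under any of the 25 alternatives in which it was called. The averaged fit ended 26 of their calls, the random block 8 and leaving out the arrays numbered 3 ended 7. Other alternatives (an added constant of 1 or 64, dim genes left out, the mean of all probe sets, an intensity-dependent prior, array weights) ended 0 to 7. Of 2050 counts over lists, 148 moved by more than 1.5 times. Dim genes, and genes near the top of the range, limit what small differences can show.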

Other observations

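Large changes also occurred in genes outside the lists, named here after their values were seen. The collagenase gene Mmp13 went from a range of 6.39 to 11.1 to a range of 43.6 to 685 (2.99 ± 0.57), the stromelysin gene Mmp10 rose by 3.02 ± 0.35, the metalloprotease inhibitor Timp1 by 3.02 ± 0.42, the membrane protease Adam8 by 3.18 ± 0.21 and the proprotein convertase Furin by 1.93 ± 0.09 (adjusted p from 6.32e-08 to 0.00123). Crabp2, a carrier of retinoic acid, went from a range of 9.34 to 29.8 to a range of 187 to 468 (3.21 ± 0.24), the nuclear receptor Rxra rose by 2.23 ± 0.27, and the vitamin A transporter Stra6 by 1.99 ± 0.21. For Stra6 the rise was 0.32 in cells grown in 0.5 µM I-BET-762, a difference of -1.67 ± 0.32 (adjusted p = 0.182).

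Among long RNAs, Mir155hg, the host transcript of miR-155, went from a range of 40.7 to 51.4 to a range of 625 to 1445, a difference of 4.01 ± 0.21 (adjusted p = 1.29e-07), and Dancr, a host of small nucleolar RNAs, rose by 2.21 ± 0.20. The transcription factor genes Zeb2 (3.90 ± 0.22), Msc (3.91 ± 0.21) and Zbtb32 (2.98 ± 0.16) rose from dim or low levels. Falls included Map2k6, a kinase upstream of p38 (-2.51 ± 0.18), Lpin1, a phosphatidate phosphatase (-2.29 ± 0.25), the mitophagy receptor Bnip3 (-1.79 ± 0.26), the clock output factor Dbp (-1.91 ± 0.25) and Ypel3 (-2.23 ± 0.19). All had arrays that did not overlap between the states. Ebf1, a B cell factor, rose by 1.40 ± 0.13 but stayed under 100 (49.4 to 74.3), and the class II invariant chain gene Cd74 rose by 1.44 ± 0.14 while H2-Ab1 gave -0.74 ± 0.27 (adjusted p = 0.0485).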
